A study of Mus musculus with 113 samples.

Results

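The genes described are 10 that pattern the midbrain and hindbrain: *Fgf15*, *Fgf8*, *Gbx2*, *En1*, *En2*, *Pax2*, *Pax3*, *Irx2*, *Irx3* and *Irx5*. They were chosen by gene symbol, 10 of 23739 symbols in the deposited gene tables. All 10 are in the SFEB population, adherent and E14 tables, and 7 are in the single-cell table, where *En1*, *En2* and *Pax2* were not analysed. R1 mouse embryonic stem cells (mESCs) were turned into neural cells by SFEB culture, serum-free floating culture of aggregates that resemble embryoid bodies, or as an adherent monoculture in N2B27 medium without serum. Both protocols replated the cells on day 6. SFEB populations formed a first series of 14 samples from 0 to 142 h and a CP series of 8 samples from 0 to 216 h. Single SFEB cells were picked by hand, 8 at each of the 8 hours of the CP series. The adherent series had 15 samples from 0 to 216 h. E14 mESCs, another line, were sequenced on days 0 and 4 of neural differentiation, either wild type (WT) or with *Fyn*, a Src-family kinase gene, deleted by CRISPR (Fyn-KO), with 3 libraries in each of the 4 groups. The Fyn-KO cells came from 1 clone, so a property of that clone and the loss of *Fyn* cannot be told apart. The E14 labels describe both protocols, and which one was used for these libraries is not given in the sources used here. Levels are FPKM, read abundance scaled to transcript length and library size, so they can be compared between genes. Read depth is not given by these values.

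In the embryo, the border between midbrain and hindbrain is an organiser called the isthmus. *Otx2* marks the territory in front of the border and *Gbx2* the territory behind it, and each represses the other. The isthmus secretes Fgf8, the signal that instructs both sides. *Fgf15* encodes another FGF ligand, transcribed broadly in the early neural tube. *En1* and *En2* are homeobox genes switched on around the isthmus, where *Pax2* is among the earliest genes. *Pax3* encodes a paired-box factor of the dorsal neural tube and neural crest. *Irx2*, *Irx3* and *Irx5* encode Iroquois homeodomain factors that define hindbrain and spinal cord domains and the neural plate behind the forebrain.

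On the NCBIM37 (mm9) build with the GENCODE M1 annotation, *Irx3* (chr8:94322428-94325553) and *Irx5* (chr8:94881695-94885351) lie 556 kb apart on chromosome 8, and *Irx2* (chr13:72766245-72771644) belongs to the other Iroquois cluster on chromosome 13. *Pax2* (chr19:44830539-44912758) and *Fgf8* (chr19:45811288-45817405) are 899 kb apart. *Gbx2* (chr1:91824537-91829865), *En1* (chr1:122498995-122505873) and *Pax3* (chr1:78097842-78193709) are on chromosome 1, *En2* (chr5:28492236-28500152) is on chromosome 5 and *Fgf15* (chr7:152082437-152086858) is on chromosome 7. The submitters' processing notes name mm10 for the E14 libraries and mm9 for all others. RefSeq start-site sequence matched 5 of the 10 genes by symbol. The 250 bases upstream of the start are shown for *Irx2* and *Irx3*, which ended high in the population series, for *En1*, which rose late, and for *Gbx2*, which ended below its start. They are written 5′ to 3′ on the gene's strand, on GRCm38.p6, at chr13:72628570-72628819 (plus strand) for *Irx2*, chr8:91801655-91801904 (minus) for *Irx3*, chr1:120602237-120602486 (plus) for *En1* and chr1:89931177-89931426 (minus) for *Gbx2*. Capitals mark matches on either strand to the GC box (GGGCGG), the CCAAT box (CCAAT), the TATA box (TATAAA) and a homeodomain core (TAATTA).
Irx2: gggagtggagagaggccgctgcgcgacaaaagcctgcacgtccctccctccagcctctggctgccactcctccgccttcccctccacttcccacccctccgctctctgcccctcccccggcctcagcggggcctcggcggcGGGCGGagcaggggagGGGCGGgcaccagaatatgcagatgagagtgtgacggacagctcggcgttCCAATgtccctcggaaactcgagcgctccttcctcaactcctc
Irx3: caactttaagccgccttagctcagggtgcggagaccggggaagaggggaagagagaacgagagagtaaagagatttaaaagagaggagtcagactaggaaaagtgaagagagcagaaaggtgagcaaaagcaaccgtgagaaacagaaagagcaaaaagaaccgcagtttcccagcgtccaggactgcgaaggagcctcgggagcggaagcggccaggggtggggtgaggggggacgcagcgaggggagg
En1: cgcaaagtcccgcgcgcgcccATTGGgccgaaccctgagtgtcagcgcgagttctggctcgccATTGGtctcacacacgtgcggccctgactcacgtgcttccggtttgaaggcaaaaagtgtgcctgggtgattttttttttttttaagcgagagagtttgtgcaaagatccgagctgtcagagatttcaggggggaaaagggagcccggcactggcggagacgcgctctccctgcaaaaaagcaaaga
Gbx2: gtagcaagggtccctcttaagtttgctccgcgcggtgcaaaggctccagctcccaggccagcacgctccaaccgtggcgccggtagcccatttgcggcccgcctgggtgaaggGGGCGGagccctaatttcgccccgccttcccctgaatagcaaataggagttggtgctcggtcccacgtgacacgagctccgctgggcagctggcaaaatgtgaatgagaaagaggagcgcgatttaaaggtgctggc
The GC box was in 32.7% of 32851 such windows, the CCAAT box in 33.8%, the TATA box in 12.4% and TAATTA in 4.84%. *Irx2* held 2 GC boxes and 1 CCAAT box, *Gbx2* held 1 GC box and *En1* held 2 CCAAT boxes. In the *Irx3* window none of the 4 motifs was found. The windows had 13 to 19 CpG dinucleotides, against a median of 6, and were 56.0 to 68.4% G or C, against a median of 52.4%. These letters are a description of the windows and not sites of binding.

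Marker genes followed the labels. All 6 pluripotency genes ended lower and all 6 neural progenitor genes ended higher in each of the 3 population series. Feeder fibroblast markers, 8 genes, summed to 778 and 810 FPKM at 0 h in the SFEB series and to 338 FPKM in the adherent series, and to between 14.3 and 104 FPKM from 38 h on across both SFEB series. The 104 FPKM was at 216 h of the CP series. Feeders had been removed by a single feeder-free passage. In the E14 libraries the 8 genes summed to 0.356 to 11.7 FPKM. ComBat, a batch correction, had been applied to the SFEB populations, with batches that are not given in the sources used here. The lowest values differed between the series. *Wnt1*, for example, was listed at exactly 0.133 FPKM in 7 samples of the first series and below 0, set here to 0, in 5 samples of the CP series. Levels near such a floor are not compared between series.

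The FGF ligand genes rose early in SFEB aggregates and fell after about 4 days. *Fgf15* stood at 4.91 FPKM at 0 h of the first series and at 3.21 FPKM at 8 h, its lowest level, then at 12.7 FPKM at 22 h and 63.98 FPKM at 103 h, before 18.9 FPKM at 126 h and 11.5 FPKM at 142 h. The CP series ran from 5.97 FPKM at 0 h to 46.3 FPKM at 106 h and 8.33 FPKM at 216 h. So *Fgf15* was highest at 103 and 106 h in the 2 SFEB series. *Fgf8* moved from 0.499 FPKM at 0 h to 6.43 at 42.5 h, 13.7 at 68 h and 18.7 at 103 h in the first series, and was back at 2.95 FPKM at 126 h. In the CP series it reached 21.1 FPKM at 84 h and was 1.75 FPKM at 144 h. Both ligand genes thus peaked between 84 and 106 h in SFEB culture and were far below the peak by 144 h.

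Adherent cells had the *Fgf15* rise without a comparable *Fgf8* level. *Fgf15* went from 1.54 FPKM at 0 h to 34.3 FPKM at 80.5 h, and was 15.9 FPKM at 216 h. *Fgf8* had a lowest level of 0.115, a median of 0.596 and a highest level of 2.87 FPKM over the 15 adherent samples, while in the first SFEB series the median was 3.16 and the highest level 18.7 FPKM. The adherent maximum came at 144 h, when SFEB levels of *Fgf8* had dropped. The tables were normalized separately, so these levels stand side by side with no test. On log2(FPKM + 1), the Pearson correlation of *Fgf8* with *Fgf15* across samples was 0.96 in the first series, 0.81 in the CP series and 0.82 in the adherent series. These points share the time axis and are not independent.

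**Figure D1:**
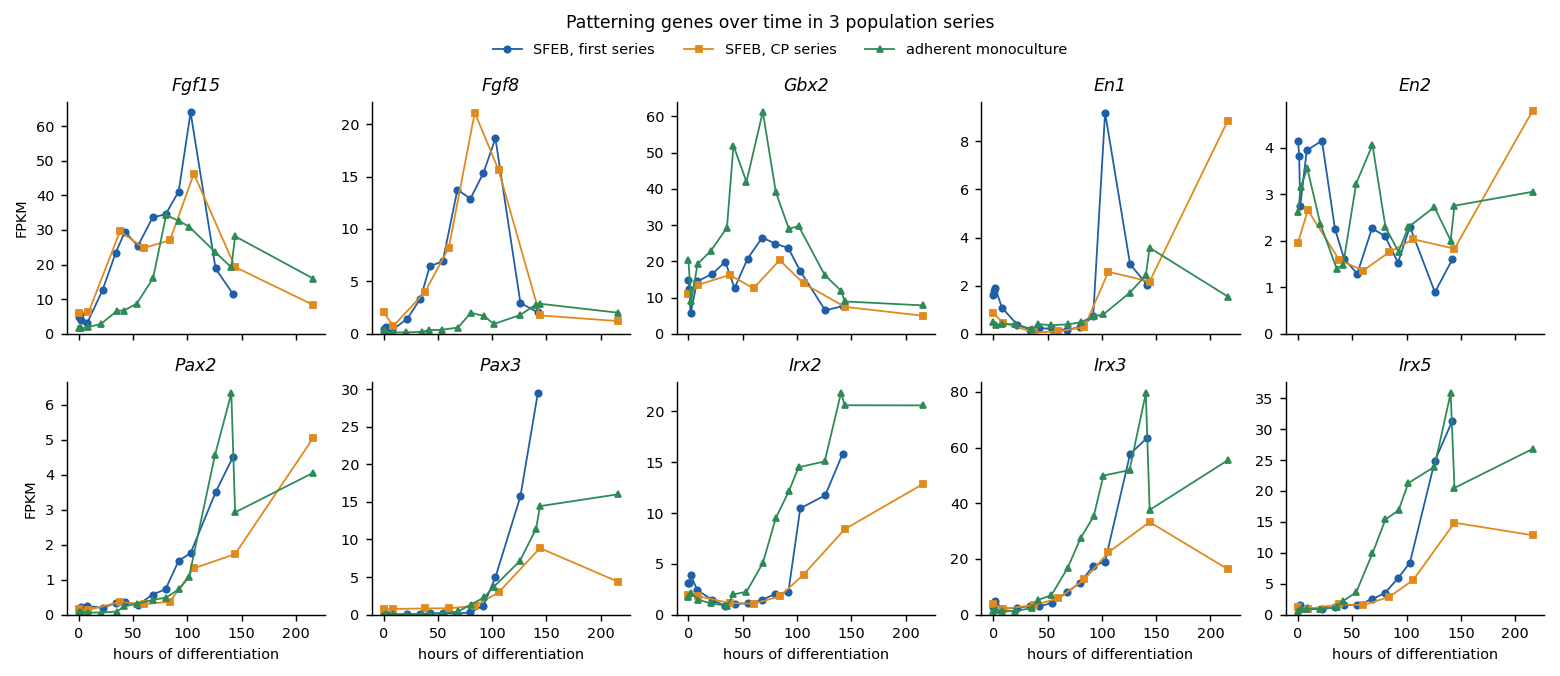
Levels (FPKM, vertical axes starting at 0, each gene on its own scale) of the 10 genes against hours of differentiation in the SFEB first series (circles), the SFEB CP series (squares) and the adherent monoculture (triangles), 1 point per sample. *Fgf8* reaches 18.7 and 21.1 FPKM in the SFEB series and 2.87 FPKM in the adherent series, whereas *Gbx2* is highest in the adherent series at 61.3 FPKM.

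*Gbx2*, the hindbrain-side partner of *Otx2*, was already transcribed in the starting cells. In the first series it was 14.8 FPKM at 0 h, 5.60 at 2 h, 14.5 at 8 h, 26.6 at 68 h and 7.65 FPKM at 142 h. The adherent series had 20.4 FPKM at 0 h, 8.93 at 2.5 h, 19.3 at 8.5 h, 61.3 at 68.5 h and 7.84 FPKM at 216 h. Both protocols therefore had a low sample at 2 or 2.5 h, their highest level at 68 or 68.5 h and an end level below the start. Each of the early low points is 1 library. *Otx2* had its highest level earlier, at 42.5 h in the first series (68.8 FPKM) and at 35.5 h in the adherent series (79.3 FPKM), and its lowest levels, 8.73 and 10.2 FPKM, were in the same 2 h and 2.5 h samples. The largest *Gbx2* level of the CP series, 20.3 FPKM, came at 84 h with its largest *Fgf8* level.

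The correlation of the Engrailed genes was 0.81 over the CP series, where both were highest at 216 h, and 0.02 and 0.04 over the first and adherent series. *En1* was between 0.170 and 0.720 FPKM from 22 to 92 h of the first series, then 9.19 FPKM at 103 h, 2.89 at 126 h and 2.02 FPKM at 142 h. In the CP series it was 2.58 FPKM at 106 h and 8.86 FPKM at 216 h, and in the adherent series it was highest at 144 h with 3.57 FPKM. Its high points fell on the high points of *Wnt1*, the isthmic Wnt ligand gene, which was 12.8 FPKM at 103 h, 11.1 FPKM at 216 h and 12.3 FPKM at 144 h in the same 3 samples. *Pax5*, another early isthmic gene, was at its highest, 5.32 FPKM, in the 103 h library too, but in the CP series it was highest at 106 h (1.88 FPKM) and not at 216 h (1.399 FPKM). *Pax5* was not analysed in the adherent series. The 103 h library thus held the highest *Fgf15*, *Fgf8*, *En1*, *Wnt1* and *Pax5* of the first series. It also held the highest *T*, a mesoderm gene, and *Foxa2*, an endoderm marker, of that series, 11.4 and 5.11 FPKM. In the CP series *T* was highest at 106 h (27.6 FPKM), with *Fgf15* and *Pax5*, and *Foxa2* at 216 h (18.2 FPKM), with *En1* and *Wnt1*. Without the 103 h library, the change of *En1* over time in the first series still passed the test.

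At 0, 1 and 2 h *En1* also stood at 1.61, 1.76 and 1.88 FPKM, falling to 1.09 FPKM at 8 h. The fibroblast markers summed to 778, 702, 526 and 329 FPKM in the same 4 samples, and the adherent 0 h sample had 338 FPKM of those markers with 0.479 FPKM of *En1*. The CP series at 0 h had the highest sum, 810 FPKM, with 0.862 FPKM of *En1*, below the 1.61 FPKM of the first series. In WT E14 cells on day 0, with 1.19 to 1.71 FPKM of the fibroblast markers, *En1* was 0.140, 0.0522 and 0.0224 FPKM. The part of the fibroblast markers' source in the early *En1* level was not tested.

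*En2* gave no common course. It ran from 4.15 FPKM at 0 h to 0.893 FPKM at 126 h in the first series, and from 1.96 FPKM at 0 h to 4.80 FPKM at 216 h in the CP series. In the adherent series it stayed between 1.402 and 4.06 FPKM, with an adjusted p of 0.716 for a change over time in limma. The CP series change rested on the 216 h library, since the adjusted p went from 0.0144 to 0.422 without it.

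**Figure D2:**
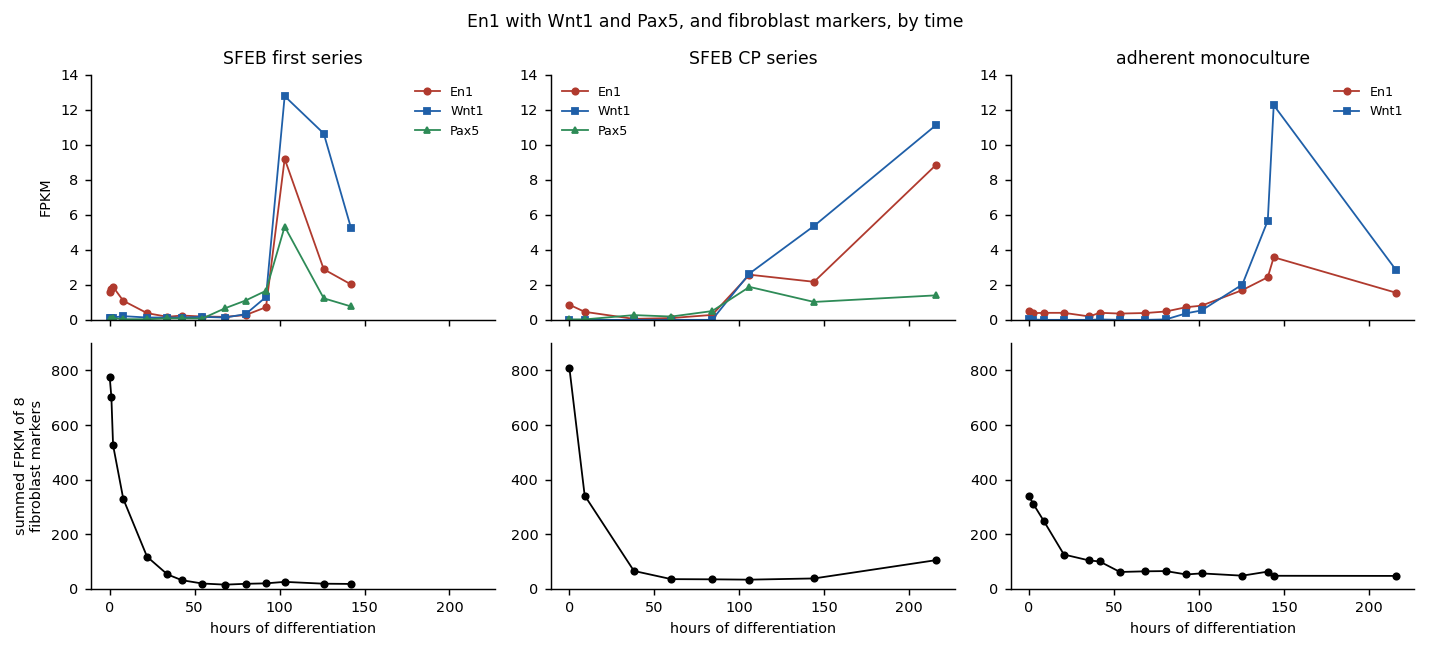
Upper row, FPKM of *En1* (circles), *Wnt1* (squares) and *Pax5* (triangles, SFEB only) against hours of differentiation, 1 point per sample; lower row, the summed FPKM of 8 feeder fibroblast markers in the same samples. *En1* and *Wnt1* are highest in the same sample of each series, and the fibroblast markers are high in the first hours, from 778 FPKM at 0 h of the first series.

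The Pax genes came up late. *Pax2* was 0.138 FPKM at 0 h of the first series, 0.725 at 80 h, 1.76 at 103 h and 4.50 FPKM at 142 h, its highest level. It was highest at 216 h in the CP series (5.05 FPKM) and at 140.5 h in the adherent series (6.33 FPKM). *Pax3* was 0.0243 to 0.177 FPKM up to 68 h of the first series, then 1.19 at 92 h, 4.99 at 103 h, 15.7 at 126 h and 29.5 FPKM at 142 h. *Pax3* thus rose over the last 4 samples of that series. In the adherent series *Pax3* was listed at 0 at 0 h, and stood at 3.70 FPKM at 101.5 h and 16.02 FPKM at 216 h. The CP series never went below 0.695 FPKM of *Pax3* and peaked at 8.85 FPKM at 144 h, so its floor stood above all samples of the first series up to 80 h. At 216 h *Pax3* was 4.36 FPKM there, while *Pax2* was at its maximum.

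The 3 Iroquois genes reached high levels in all series, and at lower hours in the adherent than in the first SFEB series. *Irx3* was 2.81 FPKM at 0 h and 63.6 FPKM at 142 h of the first series, and it first reached 0.5 of its highest level at 126 h. In the adherent series it rose from 1.12 FPKM at 0 h to 16.7 FPKM at 68.5 h and 79.5 FPKM at 140.5 h, with 0.5 of the maximum first reached at 101.5 h. At 68 h of the first SFEB series the level was 8.05 FPKM. *Irx5* had the same order, with 0.5 of the maximum at 101.5 h (adherent) and 126 h (SFEB), and highest levels of 35.8 and 31.3 FPKM. *Irx2* first fell, from 3.07 FPKM at 0 h to 0.843 FPKM at 34 h of the first series and from 1.73 to 0.873 FPKM at 35.5 h of the adherent series, and then reached 15.8 FPKM at 142 h and 21.8 FPKM at 140.5 h. *Irx3* was therefore the most abundant of the 3 per length at the end of both series, ahead of *Irx5* and *Irx2*. In the CP series, which has fewer hours, *Irx3* reached 0.5 of its maximum of 33.2 FPKM at 106 h. The order of these times rests on single samples and has no test.

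The Iroquois pair of chromosome 8 ran closely in each series, though it was the closest pair of the 10 genes only in the adherent one. The correlation of *Irx3* with *Irx5* on log2(FPKM + 1) was 0.98 over the 14 samples of the first series, 0.90 over the 8 of the CP series and 1.00 over the 15 adherent samples. With *Irx2*, *Irx3* gave 0.80, 0.74 and 0.96. *Pax3* and *Irx5* had 0.97, 0.97 and 0.88, the closest pair in the CP series, and *Pax2* and *Irx5* had 0.99, 0.90 and 0.84, the closest in the first series. All of these share the time axis.

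At similar hours the SFEB series differed for some of the genes and not for others. *Irx3* was 63.6 FPKM at 142 h of the first SFEB series and 33.2 FPKM at 144 h of the CP series, *Irx5* was 31.3 and 14.9 FPKM, and *Pax3* was 29.5 and 8.85 FPKM. *Fgf15* stood the other way, at 11.5 and 19.3 FPKM. *Gbx2* (7.65 and 7.44 FPKM), *En1* (2.02 and 2.17), *En2* (1.60 and 1.83) and *Fgf8* (2.04 and 1.75) lay closer together, with 1 sample in each series and no test. Between 140.5 and 144 h of the adherent series some genes were lower in the later sample, from 79.5 to 37.6 FPKM for *Irx3*, from 35.8 to 20.5 FPKM for *Irx5* and from 6.33 to 2.92 FPKM for *Pax2*. *Irx2* was at 21.8 and 20.6 FPKM, while *En1* was higher in the later sample (2.43 and 3.57 FPKM), as were *Fgf15* (19.2 and 28.2 FPKM) and *Wnt1* (5.66 and 12.3 FPKM). Markers of other cell types were higher in that sample too. The 6 endoderm markers summed to 40.1 FPKM at 140.5 h and 176 FPKM at 144 h, each at its highest of the series there, and *T*, a mesoderm gene, was also highest at 144 h (22.7 FPKM). The part of those cells in the *En1*, *Fgf15* and *Fgf8* levels of that sample was not tested. Cells were replated on day 6, and whether the 144 h samples were taken before or after replating is not given in the sources used here.

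Whether each gene changed over time was asked in limma with a natural cubic spline of the hours (3 degrees of freedom) on log2(FPKM + 1). All 10 genes passed at an adjusted p of 0.05 in both SFEB series, and 9 of 10, without *En2*, passed in the adherent series. Change was the rule for genes in general: 80.3% of 13009 genes passed in the first series, 72.2% of 12324 in the CP series and 70.7% of 12879 in the adherent series, so these counts lie close to the background. The smallest adjusted p in the first series was 3.28e-11 for *Irx5*, and the largest was 0.00848 for *En1*. The fitted curve ended higher than it began for 8 of 10 genes in each SFEB series and for 8 of the 9 called in the adherent series. Among all genes 43%, 38.3% and 41.2% passed and ended higher in the first, CP and adherent series, and 37.4%, 34% and 29.5% passed and ended lower. The curve ended lower for *Gbx2* in all 3 series, for *En2* in the first series and for *Fgf8* in the CP series. The median difference between the end and the start of the curve over the 10 genes was 1.78, 1.88 and 2.54 (log2) in the first, CP and adherent series, beside 0.08, 0.05 and 0.06 over all genes tested. In the CP series *Fgf8* passed with an adjusted p of 0.0325 and did not pass when the 9, 60, 84 or 106 h library was left out (0.0602 to 0.0800). Each sample is 1 culture, so these p-values measure scatter around a smooth course and not the spread between repeated cultures.

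**Figure D3:**
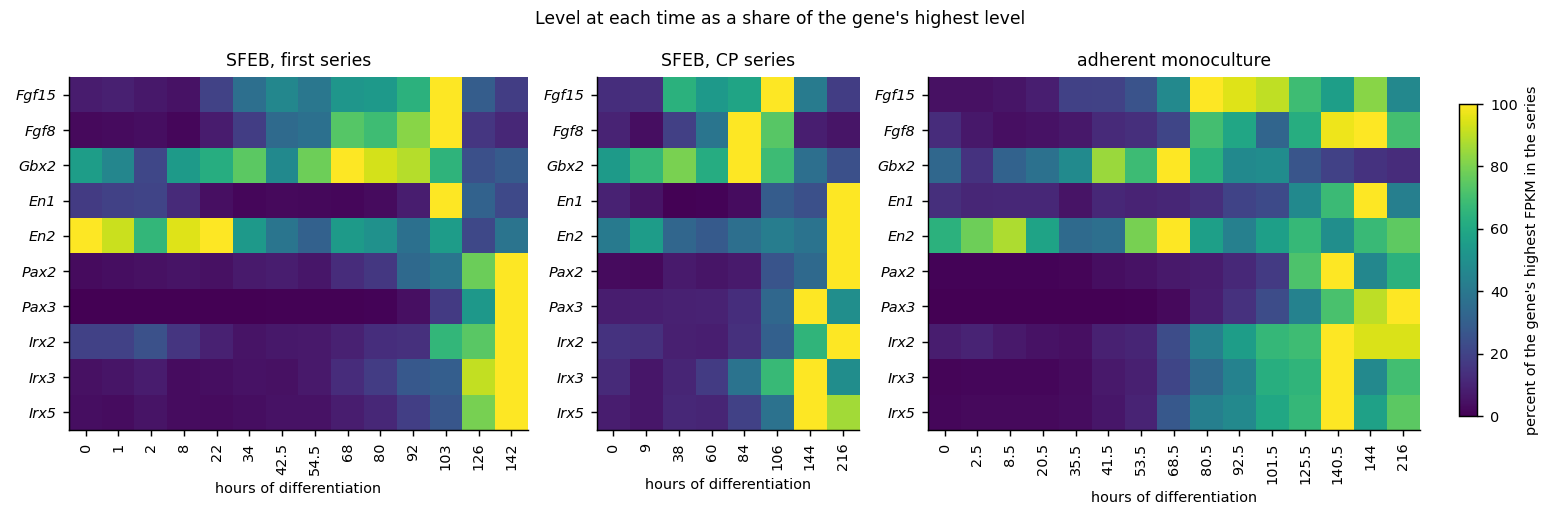
Heat maps of each gene's FPKM as a percent of its own highest FPKM in the series (colour, 0 to 100), by hours of differentiation, for the 2 SFEB series and the adherent monoculture. In the first series *Fgf15*, *Fgf8* and *En1* are highest at 103 h and the Pax and Iroquois genes at 142 h, and in the adherent series *Irx2*, *Irx3*, *Irx5* and *Pax2* are highest at 140.5 h.

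Single cells were asked which of the genes they held, with a cell counted above 0.5 RPKM, a level scaled to length and library size like FPKM. The 8 cells of an hour came from 1 culture, so counts carry exact binomial 95% intervals for counting error only and no test between hours. Over the 64 cells *Fgf15* was above the limit in 42, *Gbx2* in 19, *Irx5* in 13, *Fgf8* in 10, *Irx3* in 8, *Irx2* in 6 and *Pax3* in 3. Quantile normalization had given the cells like numbers of genes above the limit, from 4914 to 5214.

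*Fgf8* was limited in time among the cells. It was above 0.5 RPKM in 0 of 8 cells at 0, 9 and 38 h (interval 0 to 36.9%), in 2 of 8 at 60 h, in 6 of 8 at 84 h (34.9 to 96.8%), in 1 of 8 at 106 h, in 0 of 8 at 144 h and in 1 of 8 at 216 h. The 6 cells of 84 h held 1.36, 2.85, 2.92, 39.0, 72.5 and 106 RPKM. That hour was also the highest of the CP populations at 21.1 FPKM. At 106 h the population was still at 15.6 FPKM while 1 cell, with 48.5 RPKM, was above the limit.

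*Fgf15* and *Gbx2* varied from cell to cell at most hours. *Fgf15* was above the limit in 4 to 7 of 8 cells at all hours but 144 h, where 2 of 8 cells had 0.628 and 0.772 RPKM. At 216 h, however, 5 of the 6 cells above the limit were near it, at 0.521 to 1.14 RPKM, and only 1 was high, at 187 RPKM. Its highest cell, at 106 h, had 515 RPKM beside cells at 0.523 and 0.892 RPKM. *Gbx2* was above the limit in 5 of 8 cells at 84 h, with 166.9 RPKM in the highest. At 0 h only 1 of 8 cells had *Gbx2*, at 1.66 RPKM, although the population stood at 11.1 FPKM. Of the 10 *Fgf8* cells, 3 also held *Gbx2*, all at 84 h, and *Gbx2* was at 30.5, 41.9 and 166.9 RPKM in them. *Fgf15* was in 16 of the 19 *Gbx2* cells. Among all 64 cells, 42 were above the limit for *Fgf15* and 19 for *Gbx2*.

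The late genes appeared in few cells. *Irx5* was above the limit in 6 of 8 cells at 144 h (34.9 to 96.8%), from 3.60 to 201 RPKM, and *Irx3* in 4 of 8 cells at that hour, from 1.13 to 11.9 RPKM. The other 7 *Irx5* cells lay at other hours, 2 of 8 at 9 h (1.10 and 35.2 RPKM), 1 of 8 at 84 h (1.89 RPKM), 3 of 8 at 106 h (0.914 to 2.84 RPKM) and 1 of 8 at 216 h (1.74 RPKM). *Irx2* was found in 1 of 8 cells at 9 h, in 2 of 8 at 144 h and in 3 of 8 at 216 h. *Pax3* was found in 1 cell at 106 h (4.83 RPKM) and in 2 cells at 144 h (17.1 and 19.2 RPKM). Few cells held a pair of Iroquois genes above the limit, and each gene alone was in few of the 64 cells. *Irx3* and *Irx5* were together in 3 cells, of the 8 and 13 that held each, and *Irx2* and *Irx3* in 1 cell, of the 6 and 8. All 3 *Irx2* cells of 216 h were also above the limit for *Gbx2*, 1 at 86.7 RPKM and the others near the limit, at 0.717 and 0.855 RPKM. Dropout of low transcripts in single cells limits such counts, and the study gives a minimum number of reads per library, not the number for each cell.

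**Figure D4:**
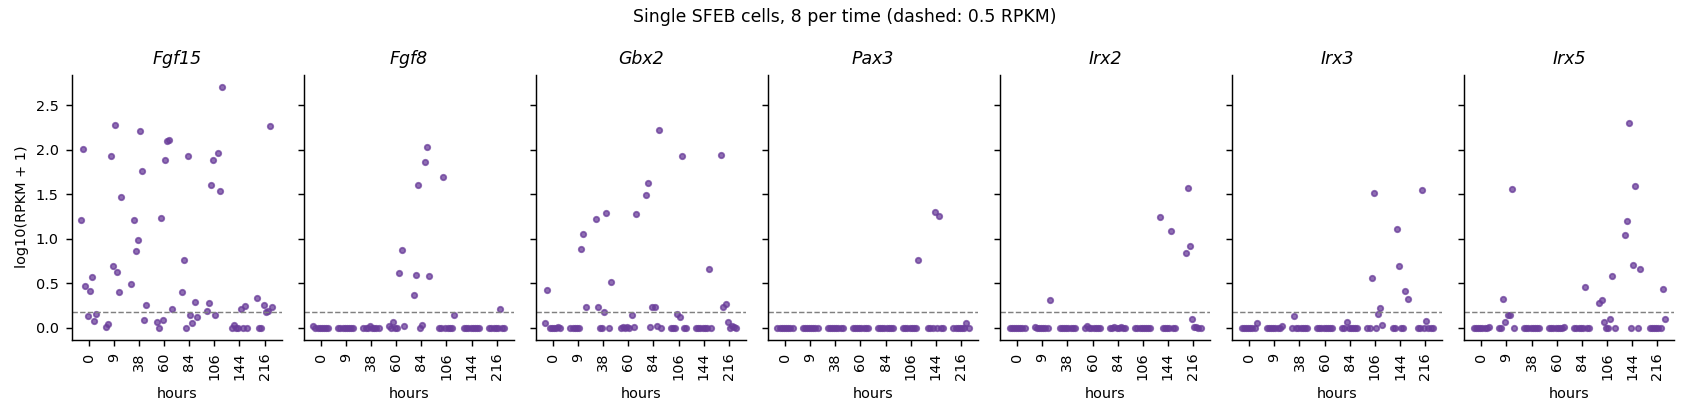
Levels in 64 single SFEB cells as log10(RPKM + 1), 8 cells per hour placed side by side above the hour (0 to 216 h), for the 7 genes in the single-cell table; the dashed line is 0.5 RPKM. *Fgf8* lies above the line mainly at 84 h (6 of its 10 cells), and *Irx5* in the most cells at 144 h (6 of its 13 cells), whereas *Fgf15* is above it at every hour.

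The E14 libraries asked how the genes changed over 4 days and whether loss of *Fyn* altered them. The deleted gene was read first. The clone's deletion removes the start codon and part of the gene, and FPKM covers the whole gene. *Fyn* was 3.21, 2.74 and 4.00 FPKM in WT and 0.598, 0.598 and 1.10 FPKM in Fyn-KO on day 0, and 9.44, 4.54 and 6.76 against 1.19, 1.13 and 1.58 FPKM on day 4. Every Fyn-KO library was below every WT library, with limma adjusted p of 0.0193 on day 4 and 0.0601 on day 0. Of the 10 genes, 6 passed the filter of 1 FPKM in at least 3 libraries, namely *Fgf15*, *Fgf8*, *Gbx2*, *En2*, *Irx2* and *Irx3*. *En1*, *Irx5* and *Pax3* reached 1 FPKM in 2, 2 and 1 of the 12 libraries and *Pax2* in 0, and they had no test.

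The first WT library of day 4 stood apart from its 2 partners. It held 43.4 FPKM of *Irx3* against 4.16 and 2.96, 22.5 FPKM of *Irx5* against 0.627 and 1.27, 4.43 FPKM of *Pax3* against 0.115 and 0.214, and 5.38 FPKM of *Irx2* against 1.08 and 1.41. Its 6 neural progenitor markers summed to 166 FPKM against 17.01 and 46.2, its 6 pluripotency markers to 740 FPKM against 1949 and 1719, its 6 endoderm markers to 9.65 FPKM against 69.6 and 143, and its 6 rhombomere genes to 28.7 FPKM against 2.52 and 4.64. The third Fyn-KO library of day 0 also stood apart, with 3.72 FPKM of *Fgf15* against 0.187 and 0.0339. Its endoderm markers summed to 14.7 FPKM against 0.96 and 1.302, of which *Cldn6* alone was 12.4 FPKM against 0.469 and 0.680. It also had 12.4 FPKM of *Otx2* against 0.397 and 0.395, and 37.6 FPKM of *Spry4* against 2.38 and 0.107. The first WT library of day 0 differed from its partners too, with 21.2 FPKM of *Gbx2* against 3.54 and 3.37. It had 6.70 FPKM of *Spry4* against 0.119 and 0.188, and 1.02 FPKM of *Otx2* against 8.57 and 9.00. The part of these libraries in the results was not tested beyond leaving them out.

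*Fgf15* rose by day 4 in both genotypes. In WT it was 0.480, 0.130 and 0.201 FPKM on day 0 and 34.7, 13.6 and 13.9 FPKM on day 4, and no library of one day reached those of the other. The rise was 3.97 ± 0.55 (log2 of FPKM + 1, SE, n = 3) with an adjusted p of 0.000726 in limma. In Fyn-KO it was 0.187, 0.0339 and 3.72 FPKM on day 0 and 19.0, 8.84 and 7.85 FPKM on day 4, a rise of 2.74 ± 0.55 with an adjusted p of 0.00625. The groups again did not overlap. The difference between the 2 rises was -1.23 ± 0.77 (adjusted p = 0.997) and did not pass the test. It was -0.80 without WT day 4 library 1 and -0.53 without Fyn-KO day 0 library 3.

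*Irx3* rose in WT, from 0.199, 0.115 and 0.148 FPKM to 43.4, 4.16 and 2.96 FPKM, by 3.07 ± 0.68 (log2, SE, n = 3; limma adjusted p = 0.00783). Without the first day 4 library the rise was 1.97 with an adjusted p of 0.00107, so the direction held and the size was over 1.5 times smaller. In Fyn-KO, 0, 0.199 and 0.122 FPKM on day 0 stood beside 1.28, 0.410 and 0.828 FPKM on day 4. These 2 groups did not overlap either, and the difference, 0.71 ± 0.68, did not pass the test (adjusted p = 0.489).

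*En2* was the gene that fell in WT, from 4.54, 3.07 and 1.79 FPKM to 0.226, 0.424 and 0.958 FPKM, with no overlap. The log2 difference was -1.401 (SE 0.36, limma adjusted p = 0.0157). The call was lost when WT day 0 library 1 or 2 or WT day 4 library 1 was left out, with adjusted p of 0.0530, 0.0515 and 0.0540. *Fgf8* was low throughout, with 1.68, 1.38 and 0.331 FPKM in WT on day 4 as the highest group, and its difference from day 0 was 0.77 ± 0.31 (adjusted p = 0.0901). It passed, at 1.08 with an adjusted p of 0.0313, when WT day 4 library 3 was left out. *Irx2* did not pass with all libraries (-0.33 ± 0.36, adjusted p = 0.538), and it passed as lower on day 4, by -0.83 with an adjusted p of 0.0316, without WT day 4 library 1.

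*Gbx2* on day 0 was 21.2, 3.54 and 3.37 FPKM in WT and 19.2, 9.40 and 18.5 FPKM in Fyn-KO. On day 4 it was 12.96, 4.35 and 8.67 FPKM in WT and 3.87, 5.66 and 3.30 FPKM in Fyn-KO. The Fyn-KO levels of the 2 days did not overlap, and the difference of -1.62 ± 0.57 did not pass the test (adjusted p = 0.0651). In WT the difference was 0.24 ± 0.57 (adjusted p = 0.796), and it ran from -0.16 to 1.01 when 1 library was left out.

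In all, 2 of the 6 tested genes rose and 1 fell in WT by day 4, against 15.5% and 10.3% of 12257 genes, and 1 rose and none fell in Fyn-KO, against 11.8% and 7.56%. In Fyn-KO 1 gene, *Gbx2*, was lower at an unadjusted p under 0.05, as were 14.6% of all genes. The median change over the 6 genes was 0.51 (log2) in WT and 0.00 in Fyn-KO, beside 0.08 and 0.05 over all genes tested. Without WT day 4 library 1 the WT median was -0.08 over the 5 genes then tested, and without 1 other library it lay between 0.27 and 0.93. The Fyn-KO median lay between -0.44 (without day 4 library 3, over 5 genes) and 0.29 (without day 0 library 3).

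Between the genotypes none of the 6 tested genes passed in limma. These comparisons use the same libraries as those between the days. On day 4, 0 of 6 passed, against 0.0734% of 12257 genes, and 2 of 6 had an unadjusted p under 0.05, as did 12.1% of all genes. These were *Irx2* and *Irx3*, both lower in Fyn-KO. *Irx2* was 0.275, 0.238 and 0.146 FPKM in Fyn-KO and 5.38, 1.08 and 1.41 FPKM in WT, a difference of -1.38 ± 0.36 (adjusted p = 0.156), or -0.88 (adjusted p = 0.256) without WT day 4 library 1. On day 0 it was 0.608, 0.967 and 0.577 FPKM in Fyn-KO and 3.95, 2.79 and 2.36 FPKM in WT, a difference of -1.22 ± 0.36 (adjusted p = 0.155). Every Fyn-KO library was thus below every WT library for *Irx2*, on both days. *Irx3* on day 4 differed by -2.42 ± 0.68 (adjusted p = 0.187), and by -1.32 with an adjusted p of 0.111 without the first WT library. *Irx5* on day 4 was 0.491, 0.155 and 0.356 FPKM in Fyn-KO against 22.5, 0.627 and 1.27 FPKM in WT, and *Pax3* was 0, 0.0131 and 0.0898 FPKM against 4.43, 0.115 and 0.214 FPKM. Neither pair of groups overlapped, and neither gene had a test. For *Pax3* the nearest levels of the 2 groups, 0.0898 and 0.115 FPKM, were both far below 1 FPKM. How many of all genes separate in this way was not counted, here or for the other groups without overlap.

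Some cell type markers were also lower in Fyn-KO on day 4, none past the test. Of the 6 neural progenitor markers 4 were tested, and 2 of them were lower at an unadjusted p under 0.05, *Sox1* by -2.40 ± 0.62 (limma adjusted p = 0.156) and *Pax6* by -2.46 ± 0.55 (adjusted p = 0.117). The other tested ones, *Sox3* and *Nes*, averaged 3.07 and 6.90 FPKM in Fyn-KO and 12.9 and 5.70 FPKM in WT. The summed level of the 6 progenitor markers was 6.96 to 25.0 FPKM in Fyn-KO and 17.01 to 166 FPKM in WT. Of the 6 endoderm markers 4 were tested, and 3 were lower at such a p, *Gata4* by -1.93 ± 0.63 (adjusted p = 0.244), *Gata6* by -1.59 ± 0.67 (adjusted p = 0.374) and *Foxa2* by -0.89 ± 0.24 (adjusted p = 0.165). The other tested one, *Cldn6*, went the other way, at 57.1, 73.4 and 101 FPKM in Fyn-KO and 5.76, 44.2 and 98.8 FPKM in WT. The sums of the 6 endoderm markers overlapped, at 58.2 to 108 FPKM in Fyn-KO and 9.65 to 143 FPKM in WT, and *Cldn6* made up most of each. None of the tested pluripotency, neuron, fibroblast and mesoderm markers (6, 4, 1 and 2) had such a p. On day 0, where *Irx2* was lower too, none of the 4 tested neural progenitor and 4 tested endoderm markers had such a p. Of the 6 pluripotency markers 1 was then lower at such a p, and of the 4 tested neuron markers 1 was higher. The part of these markers' cells in the lower *Irx2* and *Irx3* was not tested on either day.

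On day 0, 0 of 6 genes passed, against 0.171% of genes, and 2 of 6, *Irx2* and *En2*, had an unadjusted p under 0.05, as did 14.6% of all genes. *En2* was 0.856, 0.582 and 3.04 FPKM in Fyn-KO and 4.54, 3.07 and 1.79 FPKM in WT, so the groups overlapped, and the difference was -0.80 ± 0.36, or -1.22 without Fyn-KO day 0 library 3. For the interaction of genotype and day, 0 of 6 passed, and 0% of all genes did, with 537 of 12257 genes at an unadjusted p under 0.05. Of the 6, 2, *Gbx2* and *Irx3*, had such a p, with differences of -1.86 ± 0.80 and -2.36 ± 0.96 (adjusted p = 0.997 for both). The *Irx3* difference was -1.26 without WT day 4 library 1. The median difference between genotypes over the 6 genes was -0.75 on day 4 and -0.04 on day 0, and -0.76 for the interaction, beside -0.03, 0.00 and -0.03 over all genes tested. With 1 library left out these medians ran from -1.16 (without WT day 4 library 2) to -0.47 (without WT day 4 library 1) on day 4, from -0.22 to 0.06 on day 0 and from -1.45 (without WT day 4 library 2) to -0.38 (without Fyn-KO day 0 library 3) for the interaction. The p-values measure the spread between these libraries, and no source used here says that the 3 libraries of a group came from separate cultures.

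**Figure D5:**
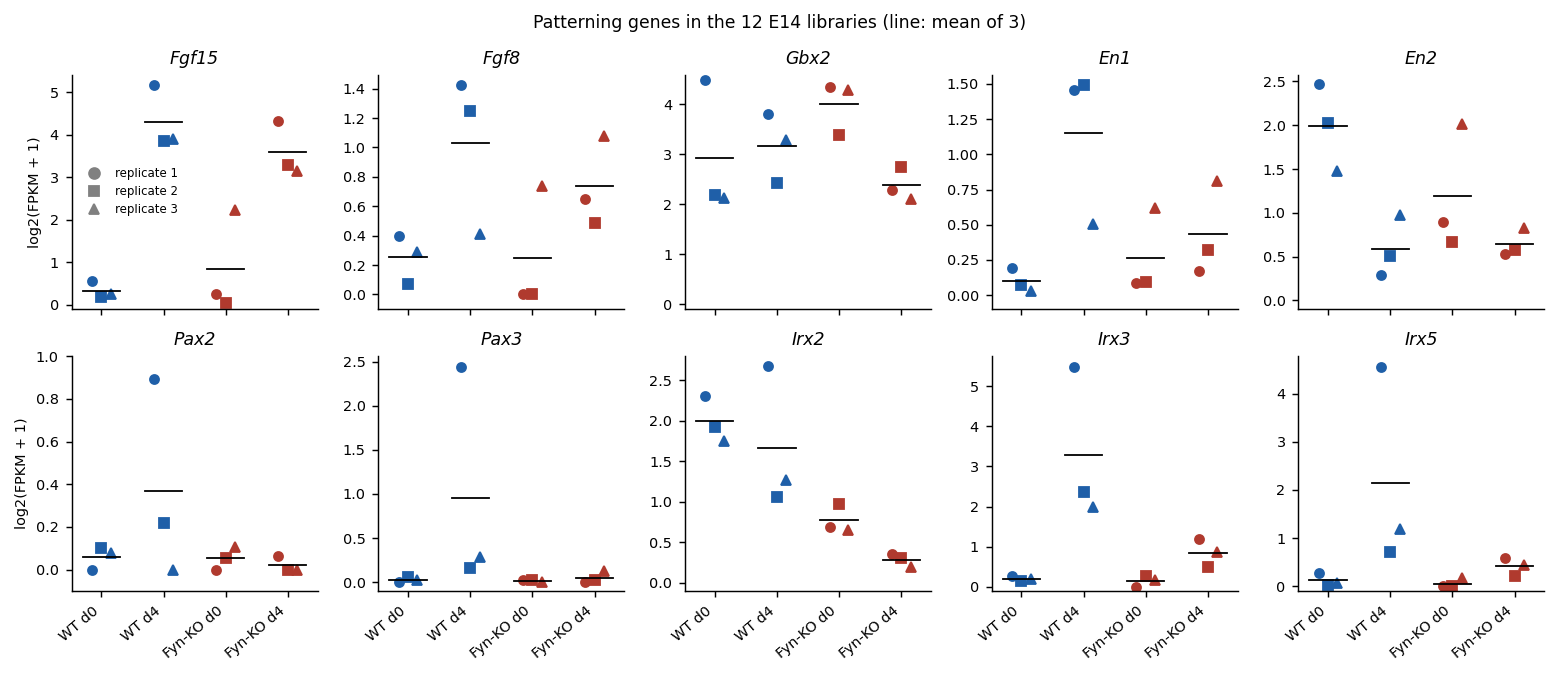
Levels as log2(FPKM + 1) in the 12 E14 libraries, by genotype (WT, wild type) and day (d0, d4), with a mark for each replicate number and a line at the mean of 3, each gene on its own scale. *Irx3*, *Irx5*, *Pax3* and *Irx2* have 1 high WT library on day 4, at 43.4, 22.5, 4.43 and 5.38 FPKM, and all Fyn-KO libraries lie below all WT libraries for *Irx2*.

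Genes that act with the set were counted by lists. Beside them, 15.5% of all genes tested rose and 10.3% fell in WT by day 4, and 11.8% rose and 7.56% fell in Fyn-KO. Of 10 isthmic partner genes, 6 were tested in E14 and *Otx2* rose (3.69 ± 0.80, adjusted p = 0.00702) and *Cnpy1* fell (-0.87 ± 0.22, adjusted p = 0.0161) in WT, as 1 rose and 1 fell in Fyn-KO. Of 4 FGF receptor genes, 2 were tested and *Fgfr2* rose in both genotypes, by 2.64 ± 0.31 in WT (adjusted p = 0.000312). Of 10 FGF response genes, all tested, 3 rose and 0 fell in WT, where *Dusp6* (2.64 ± 0.76, adjusted p = 0.0254) and *Flrt3* (2.19 ± 0.47, adjusted p = 0.00682) moved most, and 1 rose and 0 fell in Fyn-KO. *Pax6*, the only tested gene of 6 further Gbx, Irx and Pax genes, rose in WT (3.12 ± 0.55, adjusted p = 0.00260) and did not pass in Fyn-KO (0.63 ± 0.55, adjusted p = 0.451). The difference between these rises did not pass the interaction test.

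The remaining lists held few genes at E14 levels. Of 6 dorsal and neural crest genes 2 were tested, *Tfap2a* and *Foxd3*, and both fell in WT, by 2.31 and 1.16 on the log2 scale (adjusted p = 0.00173 and 0.0201), and neither passed in Fyn-KO. *Hesx1* was the 1 tested of 8 forebrain genes and passed in neither genotype. Between genotypes and for the interaction, 0 of the 23 tested genes of these lists passed in limma, with 3, 4 and 3 of them at an unadjusted p under 0.05 on day 4, on day 0 and for the interaction, where 12.1%, 14.6% and 4.38% of all genes had one.

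Over time the lists split, counting as higher or lower at the end only genes that passed the test of change over time, beside the 43%, 38.3% and 41.2% of all genes that passed and ended higher and the 37.4%, 34% and 29.5% that ended lower. Of the 10 FGF response genes 8 ended lower and 2 higher in the first series, 4 lower and 3 higher in the CP series, and 6 lower and 2 higher in the adherent series. The 3 CP genes that did not pass had 2 curves ending higher and 1 lower. *Spry4*, an FGF feedback inhibitor gene, went from 26.1 FPKM at 0 h to 0.870 FPKM at 142 h of the first series. The 10 genes summed to 224 FPKM at 0 h, 208 FPKM at 103 h and 75.5 FPKM at 142 h there. In the CP series they summed to 225 FPKM at 0 h, 295 FPKM at 84 h and 157 FPKM at 216 h, when *Fgf8* was 1.21 FPKM. The median difference between end and start over all 10 of these genes, passed or not, was -0.73, -0.16 and -0.46 (log2), beside 0.08, 0.05 and 0.06 over all genes. FGF receptor genes passed and ended higher in 3 of 4, 3 of 3 and 3 of 4 tested cases, with 1 lower in the first series. Isthmic partners passed and ended higher in 6 of 9, 4 of 8 and 4 of 8, and lower in 2 of each, and the curves that did not pass ended lower for 1 in the first series, higher for 2 in the CP series and 1 each way in the adherent series. The medians were 1.68, 2.06 and 1.44 for the receptors and 1.44, 0.73 and 0.67 for the partners. Rhombomere genes ended higher in 3 of 6, 4 of 5 and 4 of 6 and lower in 2, 0 and 2. Forebrain genes ended higher in 4 of 5, 4 of 4 and 3 of 3, with 1 lower in the first series, dorsal and neural crest genes ended higher in 1 of 4, 0 of 4 and 1 of 3 and lower in 2 of each, and the further Gbx, Irx and Pax genes ended higher in 2 of 2, 2 of 2 and 4 of 4. *Hoxb2*, a hindbrain Hox gene, reached 34.96, 36.3 and 34.3 FPKM in the 3 series.

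The genes whose course was most like each member were ranked by the mean correlation over the 3 population series, among genes that passed the filter in all 3. *Wnt1* was among the 3 most like *En1*, with a mean r of 0.90 (0.78, 0.94 and 0.99 in the first, CP and adherent series), after *Ablim1* at 0.91 and before *Pam* at 0.90. *Lhx5* (0.98), *Pou3f3* (0.96) and *Lhx1* (0.96) came first for *Pax2*. *Irx5* had *Mpped1*, *Fzd3* and *Fabp7*, with means of 0.99, 0.98 and 0.98, and *Irx3* had *Greb1*, *Megf6* and *Zhx2* at 0.97 each. *Irx2* had *Mn1* (0.98), *Mecom* (0.96) and *Zfp503* (0.96), and *Pax3* had *5930412G12Rik* (0.98), *Tspan18* (0.97) and *Sdk2* (0.97). The likeness was weaker for *Fgf15* (*Mdk*, *Car4* and *Lrp2*, 0.91 to 0.92), *Fgf8* (*Ncrna00086*, *Igsf1* and *Cda*, 0.90), *Gbx2* (*Sh3bgrl2*, *Ubr7* and *Car2*, 0.87 to 0.89) and *En2* (*Alcam*, *Pcdhgb7* and *Pcdhgb2*, 0.71 to 0.81). These correlations share the time axis and give no more than a likeness of course.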

How the data were processed

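RNA-seq values of 113 samples were used: 22 SFEB populations, 64 SFEB single cells, 15 adherent samples and 12 E14 libraries. Samples were grouped by their titles and labels. Library preparation was with Nextera XT. The submitters' processing notes name TopHat2 2.0.8b and Cufflinks 2.1.1, with mm10 for the E14 samples and mm9 for the others. The paper's methods name other tool versions for the R1 samples, and which applied is not given in the sources used here. The authors deposited FPKM values for the adherent and E14 samples. The SFEB population values are other than plain FPKM: the authors deposited them after ComBat correction, and 1256 values below 0, none in the 10 genes, were set to 0. The authors deposited the single-cell values as log10(RPKM + 1) after quantile normalization. The methods state a filter of more than 0.5 RPKM in at least 8 cells, but 2008 of the 11449 genes in the table do not meet it, *Pax3* and *Irx2* among them. The paper gives a minimum number of reads for each single-cell and matched population library, but FPKM does not show each sample's depth. Cuffdiff, which needs reads, was not run.

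For E14, limma 3.58.1 (R 4.3.3) was fitted to log2(FPKM + 1) in 1 model of the 4 groups, with a variance trend. A gene was tested if 3 or more libraries reached 1 FPKM, and p-values were adjusted by the Benjamini-Hochberg method (threshold 0.05). Such fold changes understate those of low genes. Population series were tested in limma with a natural spline of 3 degrees of freedom, each series alone. Correlations, counts and figures were made in Python 3.11.15 with pandas 2.3.3, numpy 2.4.6, scipy 1.17.1 and matplotlib 3.10.9. The tests were run on simulated data first. The members, the gene lists and the tests were chosen with earlier results of these data known. The genes named besides the members are at most 2 rises and 2 falls per list in WT E14 cells, and the 3 genes most like each member. *Fyn*, *Sox1*, *Pax6*, *Gata4*, *Gata6*, *Foxa2*, *T*, *Pax5*, *Spry4*, *Hoxb2*, *Irx1* and *Hesx1*, and *Wnt1* beyond its likeness to *En1*, were named beyond that rule after their values were seen. So were *Cldn6*, *Nes* and *Sox3*.

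Equal replicate numbers were checked for pairing by the correlation of deviations from group means. It was 0.199, 0.220 and 0.224 for WT on days 0 and 4, and 0.136, 0.258 and 0.240 for WT and Fyn-KO on day 4. These are above 0.1 in every pair, so the numbers may pair these samples. An unmatched pair, WT library 1 and Fyn-KO library 3 of day 0, also reached 0.253. The main fit took all groups as unpaired. For Fyn-KO on days 0 and 4 it was 0.0239, 0.0899 and 0.00112, and for both genotypes on day 0 it was 0.0628, 0.339 and -0.115, so those samples share only a number. Alternatives were a pseudocount of 0.1, no filter, quantile normalization, a replicate block, other time terms and leaving out each sample.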

Additional observations from a re-analysis of the deposited data

How the results depend on the processing

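The counts of members passing the test kept within 1.5 times under a pseudocount of 0.1, no filter, quantile normalization, a spline of 2 degrees of freedom and ranks of the hours. With the replicate block, 2 members changed in Fyn-KO between the days in place of 1, since *Gbx2* also fell (adjusted p = 0.0344), but these samples share only a number, and the block changed no other member's call. Leaving out 1 library gave 2 to 4 changed members in WT between the days, 1 in Fyn-KO, 0 between genotypes on either day and 0 for the interaction. Leaving out 1 sample gave 10 in the first series, 7 to 10 in the CP series and 9 in the adherent series. Of the CP runs, those without 106, 144 or 216 h tested fewer members, as *En1* and *Pax2* then missed the filter. The 101 cases of a member above 0.5 RPKM in a cell became 160 above 0 RPKM, 51 above 5 RPKM and 100 without cell 16 of 216 h, an outlier in the study. Leaving out WT day 4 library 1 and Fyn-KO day 0 library 3 together, chosen after seeing the data, left the counts of changed members within 1.5 times. Over all genes, the calls between genotypes on day 0, 21 with all libraries, ranged from 4 (without WT day 0 library 2) to 128 (without WT day 0 library 1), and on day 4, 9 with all libraries, they were 24 with no filter, 17 after quantile normalization and 5 (without Fyn-KO day 4 library 1) to 14 (without WT day 4 library 3) when 1 library was left out. For the interaction the 0 calls became 1 with no filter, 2 with the replicate block, 1 without WT day 4 library 3 and 4 without WT day 0 library 1, and stayed at 0 without any other single library. Calls between the days over all genes, behind the background shares printed, were 3166 in WT and 1831 to 2841 when 1 library was left out (1831 without day 0 library 2, 1991 without day 0 library 3), and 2370 and 1041 to 3063 in Fyn-KO (1041 and 1281 without day 0 library 2 or 1, 1150 without day 4 library 3). *En2* over time in the CP series was lost after quantile normalization (adjusted p = 0.0843).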

Other observations

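*Irx1*, the neighbour of *Irx2* on chromosome 13, ended at 6.65 and 7.66 FPKM in the first and CP SFEB series and at 12.9 FPKM in the adherent series. The tables were normalized separately, and these levels were not tested against each other. The gene was picked from the lists after its values were seen.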
